A study of Mus musculus with 4 samples.

Results

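The troponin subunit genes were followed in C2C12 cells, a mouse myoblast line that fuses into multinucleated myotubes when serum is withdrawn. The members were the 8 entries named Tnnc1, Tnnc2, Tnni1, Tnni2, Tnni3, Tnnt1, Tnnt2 and Tnnt3, and each of them was found once in every expression table. They were 8 of 24850 entries with a gene symbol in the total RNA tables and 8 of 24992 in the polyA tables. MB were C2C12 myoblasts collected at -24 h relative to the switch to differentiation medium (DM), and MT were C2C12 cells kept in DM for 72 h. RNA of both was depleted of rRNA before sequencing. The second pair were MT kept in DM for 48 h and transfected with an siRNA against hnRNPL, an RNA-binding protein (si-hnRNPL), or with a negative control siRNA (si-NC), and these libraries were made from polyA RNA. All 4 libraries came from this 1 line, and none is muscle tissue. Each condition had a single library, so the differences have no check between replicates and carry no p-value.

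Troponin is the calcium switch of the thin filament of striated muscle. Troponin C binds calcium, troponin I holds back the interaction of actin with myosin, and troponin T ties the complex to tropomyosin. Each subunit is encoded by separate genes for separate fibre types. Tnnc1 encodes the troponin C of slow skeletal muscle and heart and Tnnc2 that of fast muscle. Tnni1, Tnni2 and Tnni3 encode the slow, fast and cardiac troponin I, and Tnnt1, Tnnt2 and Tnnt3 the slow, cardiac and fast troponin T. Tnnt2 is also known to be made in embryonic skeletal muscle.

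The promoters of the slow and the cardiac genes are shown first, because these genes are compared with one another below and their levels before differentiation differ widely. RefSeq windows (GRCm38.p6, 250 bases before to 50 bases after an annotated start) were found for 6 of the 8 genes, giving 8 windows, as Tnni1 and Tnnt2 each have 2. Tnni2 and Tnnt3 had no entry. Capitals mark, on either strand, the CAGCTG form and the CACCTG form of the E-box, to which myogenic bHLH factors bind, the M-CAT box (CATTCC) and the TATA box (TATAAA).
Tnnc1 (chr14:31208062-31208361, plus strand): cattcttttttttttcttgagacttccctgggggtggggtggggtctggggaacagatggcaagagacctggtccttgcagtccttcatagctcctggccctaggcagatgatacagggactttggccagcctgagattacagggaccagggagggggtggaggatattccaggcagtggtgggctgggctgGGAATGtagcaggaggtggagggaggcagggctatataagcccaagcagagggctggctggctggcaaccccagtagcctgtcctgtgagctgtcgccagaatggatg
Tnni1 (chr1:135799171-135799470, plus strand): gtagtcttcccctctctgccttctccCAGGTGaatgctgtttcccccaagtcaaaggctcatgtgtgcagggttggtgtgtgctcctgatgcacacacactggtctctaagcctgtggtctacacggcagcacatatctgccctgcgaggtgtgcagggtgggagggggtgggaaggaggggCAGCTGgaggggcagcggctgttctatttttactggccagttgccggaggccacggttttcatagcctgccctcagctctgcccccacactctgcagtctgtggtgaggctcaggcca
Tnnt1 (chr7:4515926-4516225, minus strand): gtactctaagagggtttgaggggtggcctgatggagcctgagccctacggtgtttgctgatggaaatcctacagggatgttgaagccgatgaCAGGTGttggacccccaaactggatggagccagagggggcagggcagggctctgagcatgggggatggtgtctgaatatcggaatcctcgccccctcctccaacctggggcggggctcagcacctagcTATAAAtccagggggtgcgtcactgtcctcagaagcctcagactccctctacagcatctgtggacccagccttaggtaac
Tnnt2 (chr1:135836084-135836383, plus strand): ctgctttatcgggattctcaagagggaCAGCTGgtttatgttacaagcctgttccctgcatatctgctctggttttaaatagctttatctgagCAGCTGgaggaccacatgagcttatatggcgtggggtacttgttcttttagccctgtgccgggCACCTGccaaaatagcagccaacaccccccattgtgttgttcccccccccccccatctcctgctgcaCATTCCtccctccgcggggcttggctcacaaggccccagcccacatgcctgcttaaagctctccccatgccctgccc
Tnni3 (chr7:4522479-4522778, minus strand): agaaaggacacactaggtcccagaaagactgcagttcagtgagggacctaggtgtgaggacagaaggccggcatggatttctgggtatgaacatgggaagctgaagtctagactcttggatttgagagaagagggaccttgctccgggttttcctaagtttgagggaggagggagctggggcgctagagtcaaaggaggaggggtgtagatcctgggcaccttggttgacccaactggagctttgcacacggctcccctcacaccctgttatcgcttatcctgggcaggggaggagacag

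An E-box (CANNTG) was found in 8 of the 8 windows, against 72.3% of the 32851 windows of all genes. The CAGCTG and CACCTG forms, which the general E-box includes, were in 3 and 5 of the 8 windows, against 16.3% and 20.2% of all windows. The upstream window of Tnnt2 held 2 CAGCTG and 1 CACCTG, and that of Tnni1 held 1 of each. Tnnc1 had neither form and 1 M-CAT box at position -58 from the start, and Tnnt2 had 1 M-CAT box at position -27, while 14.7% of all windows have one. Only Tnnt1 held the TATAAA box, at position -30, and 13.6% of all windows hold it. MEF2 and CArG motifs were in 0 of the 8 windows and in 3.19% and 1.63% of all windows. Tnni3 had 1 E-box and none of the other motifs. The windows of Tnni1 overlap each other, so they are not separate observations, and a match describes the letters of the window only.

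The loci are given as deposited, in mm9. Tnnc1 lies on chromosome 14 (32021498 to 32024897, plus strand) and Tnnc2 on chromosome 2 (164602662 to 164605234, minus strand). The other 6 genes form 3 pairs of a troponin I with a troponin T gene. Tnni1 (chromosome 1, 137695998 to 137707566) is followed at 25344 bp by Tnnt2 (137732911 to 137748845), both on the plus strand, with Lad1 between them. Tnni2 (chromosome 7, 149628373 to 149630310) and Tnnt3 (149684741 to 149701914), also on the plus strand, are 54430 bp apart with Lsp1 between them. Tnnt1 (chromosome 7, 4456172 to 4467577) and Tnni3 (4469910 to 4474045 in the total RNA tables) lie on the minus strand 2332 bp apart with no named entry between them. The pairs therefore join a slow with a cardiac gene on chromosome 1, a fast with a fast gene, and again a slow with a cardiac gene.

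Before the troponin genes, the label of each library was checked. Hnrnpl itself was at 111 FPKM in MB and 63.0 in MT. Its level was 95.1 (95% interval 92.7 to 97.5) in si-NC against 85.9 (83.1 to 88.7) in si-hnRNPL. FPKM is the number of fragments scaled by the length of the transcript and the size of the library, and its interval, given by the authors' software, covers the error of counting and of assignment inside 1 library. The knockdown library was thus lower than its control by 0.14 on the log2 scale (-0.14, interval -0.20 to -0.09), a small difference in mRNA. The paper examined the knockdown of the protein by Western blot, which RNA values cannot show. Markers of differentiated myocytes summed to 112 FPKM in MB (5 of the 6 genes found) and to 1112 in MT, while si-NC had 2007 and si-hnRNPL 2817 with 6 of 6 found. Most of the MB sum was Des, at 98.7 FPKM in MB and 195 in MT, followed by Acta1 at 12.1 and 479. Myog was at 0.695 and 251, Ckm at 0.00961 and 66.3, and Myh3 at 0.101 and 121. Cardiomyocyte markers summed to 7.54, 4.72, 8.96 and 7.34 FPKM in MB, MT, si-NC and si-hnRNPL, with Hand2 at 0 in all 4 libraries, Tbx5 and Nppa at most at 0.00495 and 0.0686, Nppb at most at 3.18 and Gata4 as the highest gene at up to 5.10. Markers of endothelium, blood, fat and neurons summed to at most 1.13 FPKM in any library. Those of smooth muscle summed to 504, 381, 588 and 796, most of it Acta2, an actin that myoblasts also express, with Myh11 at most at 0.0994. The other smooth muscle markers were detected, Cnn1 at 51.9 FPKM in MB and 1.35 to 3.84 in the other libraries, and Smtn at 13.2 to 38.5 in all 4. The widths of the FPKM intervals over all entries correspond to 59960176 fragments for MB and 54442423 for MT, and to 21341051 for si-NC against 14592480 for si-hnRNPL.

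All 8 troponin genes were higher in MT than in MB, and 7 of the 8 were among the abundant mRNAs of MT. By FPKM these 7 ranked between 33 and 241 of the 24850 named entries in MT and between 1852 and 11819 in MB. All 8 genes together held 0.0168% of the FPKM of protein-coding genes in MB and 0.709% in MT, with sums of 57.9 and 1867 FPKM. The changes below are log2 ratios of FPKM + 1, which understate the change of genes with low FPKM, and 0.58 on that scale was taken as the fold to pass. All 8 genes passed it, against 7.81% of all named entries and 14.6% of the 11486 named entries with a mean FPKM of at least 1. The 95% intervals of MB and MT did not overlap for any of the 8, while the MT interval lay wholly above that of MB for 20.1% of all named entries and 31.1% of those with a mean FPKM of at least 1. The median log2 change of the 8 genes was 6.32, and that of the expressed named entries was -0.21.

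**Figure D1:**
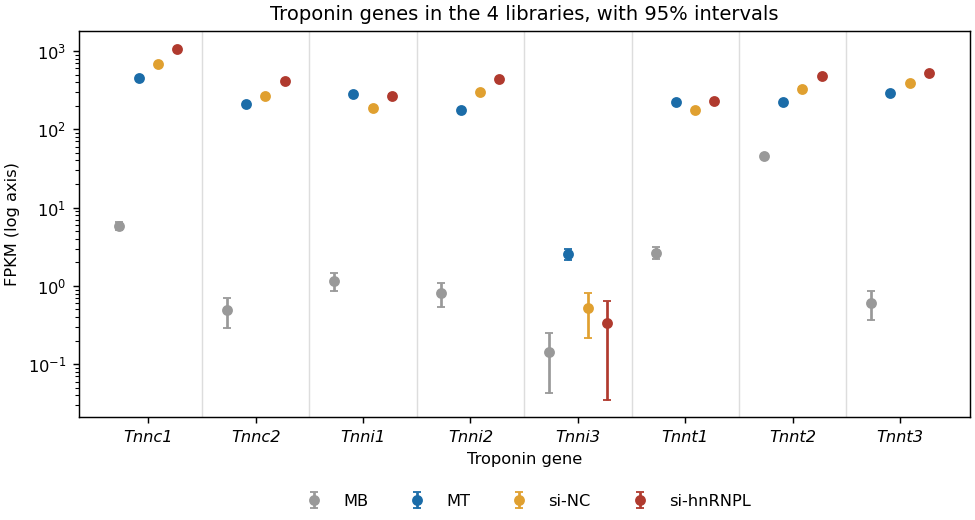
FPKM of the 8 troponin genes in each library on a log axis, with points for the deposited value and bars for its 95% interval, 1 library per condition. In MB only Tnnt2 stands above 10 FPKM, in the other libraries 7 of the 8 genes lie between 175 and 1047 FPKM, and Tnni3 stays below 3 FPKM in all 4.

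Among the troponin C genes, Tnnc1 had an FPKM of 5.91 (interval 5.18 to 6.63) in MB and 451 (445 to 457) in MT. That is a 76.4-fold difference in FPKM (67.5 to 86.4) and a log2 change of 6.03, and it placed Tnnc1 at rank 33 of the 24850 named entries in MT. Tnnc2, the fast form, was at 0.499 (0.286 to 0.711) in MB and 211 (207 to 215) in MT. The MB value of Tnnc2 rests on about 22 fragments, as implied by its interval, and its fold of 423 has a wide interval of 276 to 649. On the log2 scale Tnnc2 changed by 7.15 and thus by more than Tnnc1, with a difference of -1.11 for Tnnc1 minus Tnnc2 (-1.37 to -0.86). Tnnc1 nevertheless remained the main troponin C mRNA, at 92.2% of the troponin C FPKM in MB and 68.1% in MT, where Tnnc2 made up 31.9%.

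The skeletal troponin I genes were both near 1 FPKM in MB. Tnni1, the slow form, was at 1.16 (0.868 to 1.45) and Tnni2, the fast form, at 0.809 (0.531 to 1.09), so that their intervals overlapped. In MT, Tnni1 reached 285 (280 to 289) and Tnni2 175 (171 to 179). Slow exceeded fast troponin I there by 1.63-fold (1.58 to 1.67), while the MB ratio of 1.43 (0.937 to 2.19) could not be told from 1. The log2 changes were 7.05 for Tnni1 and 6.61 for Tnni2, with a difference of -0.44 for Tnni2 minus Tnni1 (-0.74 to -0.14) on the scale of FPKM + 1. The folds of FPKM itself, 246 (191 to 316) and 217 (154 to 306), had intervals that overlapped. Tnni3, the cardiac form, was the lowest troponin gene of both libraries, with 0.145 FPKM (0.0426 to 0.248) in MB from about 8 implied fragments and 2.54 (2.12 to 2.96) in MT. Its FPKM was higher in MT by 17.5-fold (8.46 to 36.1) and by 1.63 on the log2 scale (1.41 to 1.84), and it made up 0.549% of the troponin I FPKM in MT. The log2 change of so low a gene depended on the pseudocount and was 0.55 with 5 and 4.04 with 0.01. The cardiomyocyte markers summed to less in MT than in MB, as given above, but went in different directions. Gata4 was at 5.10 FPKM in MB and 2.80 in MT, Nppb at 1.63 and 0.850, and Nkx2-5 at 0.778 and 0.287. Nppa was higher in MT, at 0.0180 and 0.0686, as was Tbx5, at 0.00339 and 0.00495, and Hand2 was at 0 in both. Myh6, a cardiac myosin heavy chain, was at 0.00309 FPKM in MB and 0.705 in MT.

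The troponin T genes differed most in where they started. Tnnt2, the cardiac and embryonic form, was at 46.1 FPKM (44.7 to 47.6) in MB, where Tnnc1 came next with 5.91, and at 224 (220 to 227) in MT. Its 4.85-fold difference (4.69 to 5.02) and log2 change of 2.25 were the smallest among the 7 abundant genes. Tnnt1, the slow form, went from 2.66 (2.20 to 3.11) to 224 (220 to 229), a log2 change of 5.95, and ended at a level that could not be told from that of Tnnt2. Tnnt3, the fast form, was at 0.613 (0.363 to 0.863) in MB, from about 24.1 implied fragments, and at 295 (290 to 300) in MT. With a log2 change of 7.52 (7.29 to 7.74), Tnnt3 had the largest rise of the 11486 named entries with a mean FPKM of at least 1 at this pseudocount, as 0 of them rose more. The fold of 481 has an interval of 320 to 723, since the MB value is low. The log2 change of Tnnt2 was smaller than that of Tnnt1 by -3.69 (-3.88 to -3.50) and than that of Tnnt3 by -5.27 (-5.50 to -5.04).

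**Figure D2:**
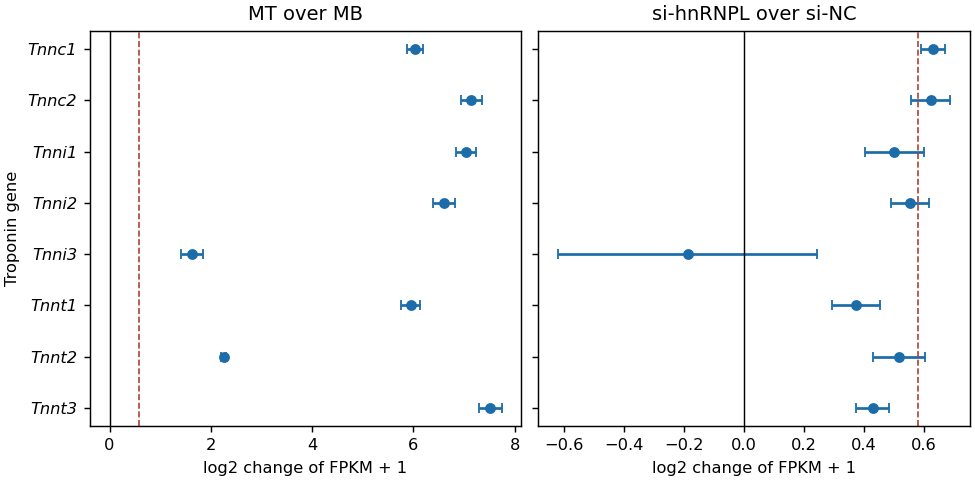
Log2 change of FPKM + 1 for each troponin gene in MT over MB and in si-hnRNPL over si-NC, on separate axes, with bars for the interval combined from both libraries and a dashed line at 0.58. In MT over MB Tnni3 (1.63) and Tnnt2 (2.25) stand apart from the other 6 genes (5.95 to 7.52), and in si-hnRNPL over si-NC the 7 abundant genes lie between 0.37 and 0.63.

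The order of the levels shows the same. In MB it ran Tnnt2, Tnnc1, Tnnt1, Tnni1, Tnni2, Tnnt3, Tnnc2 and Tnni3. From Tnni1 to Tnnc2 each interval overlapped that of the next gene, though Tnni1 (0.868 to 1.45) lay wholly above Tnnt3 (0.363 to 0.863) and Tnnc2 (0.286 to 0.711). In MT it ran Tnnc1, Tnnt3, Tnni1, Tnnt1, Tnnt2, Tnnc2, Tnni2 and Tnni3, and only Tnnt1 and Tnnt2 overlapped. In si-NC the order was Tnnc1, Tnnt3, Tnnt2, Tnni2, Tnnc2, Tnni1, Tnnt1 and Tnni3, with an overlap of Tnni1 and Tnnt1 only. In si-hnRNPL it was identical to si-NC, and only Tnnt2 and Tnni2 overlapped. Tnnc1 was the highest troponin mRNA in all 3 differentiated libraries and Tnni3 the lowest in all 4.

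Within each subunit the makeup differed between MB and MT. Tnnt2 made up 93.4% of the troponin T FPKM in MB (92.4 to 94.4) and 30.1% in MT (29.7 to 30.5), a difference of -63.3 percentage points (-64.4 to -62.2). Tnnt3 and Tnnt1 took up that share, rising from 1.24% to 39.7% and from 5.38% to 30.2%. In troponin C, Tnnc2 gained 24.1 points (20.9 to 27.3). In troponin I the shares of Tnni1 (54.9% in MB, 61.6% in MT) and Tnni2 (38.3% and 37.9%) differed by less than their intervals, with differences of 6.71 points (-3.19 to 16.6) and -0.38 points (-10.2 to 9.48). The share of Tnni3 was lower in MT, by -6.33 points (-11.0 to -1.61).

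**Figure D3:**
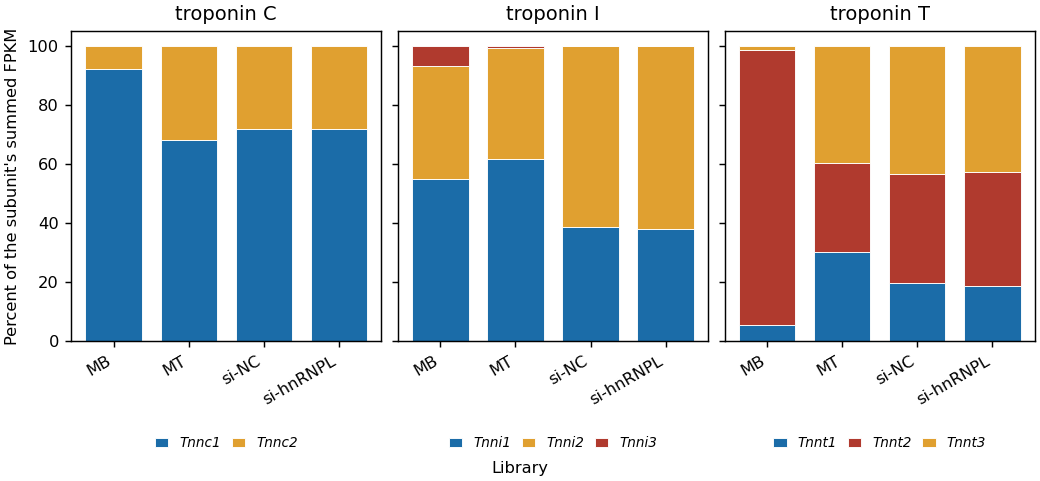
Percent of each subunit's summed FPKM that each isoform gene holds in the 4 libraries, as stacked bars that add to 100, with slow genes in blue, fast genes in yellow and the cardiac Tnni3 and Tnnt2 in red (Tnnc1 is shared by slow muscle and heart). Tnnt2 takes 93.4% of troponin T in MB and 30.1% to 38.5% in the other libraries, and the si-NC and si-hnRNPL bars differ by at most 1.72 points.

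The subunit sums became more alike with differentiation. In MB the troponin T mRNAs exceeded those of troponin I by 23.4-fold (19.2 to 28.5) and troponin C exceeded troponin I by 3.03-fold (2.41 to 3.81). In MT these ratios were 1.61 (1.58 to 1.63) and 1.43 (1.41 to 1.46), and troponin C stood at 0.891 of troponin T (0.878 to 0.905), against 0.130 in MB. Between MB and MT the troponin I sum differed by 219-fold (180 to 266), the troponin C sum by 103-fold (91.8 to 116) and the troponin T sum by 15.0-fold (14.6 to 15.5). The ratios of the FPKM sums compare mRNAs per length and say nothing of the proteins.

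A pseudocount cannot turn the direction of a change, and each scaling tried moved all 8 changes further up, so neither tested the direction. With values scaled to TPM, the median of the expressed entries moved from -0.21 to 0.67, since the FPKM sum over every entry was 650275 for MB against 337279 for MT, and the median of the 8 genes moved from 6.32 to 7.46. The sum of the proliferation markers moved the other way from the troponin genes, from 632 FPKM in MB to 204 in MT. Mki67, Ccnb1, Top2a, Id1 and Id3 were lower in MT, and Myf5 was nearly level at 13.8 and 13.6. In bulk RNA a larger share of differentiated cells and more RNA per cell cannot be told apart.

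After siRNA against hnRNPL, 7 of the 8 troponin genes were higher than in si-NC, by a narrow range of 0.37 to 0.63 on the log2 scale. Only the 2 troponin C genes passed 0.58, so 2 of 8 did, against 0.688% of all named entries and 1.36% of the 11234 with a mean FPKM of at least 1. The si-hnRNPL interval lay wholly above that of si-NC for 7 of the 8 genes, and for 6.57% and 14.2% of those entries. The median log2 change was 0.51 for the 8 genes and -0.01 for the expressed named entries. The share of troponin mRNAs in the protein-coding FPKM was 0.614% for si-NC against 0.836% for si-hnRNPL, and their sums were 2334 and 3398 FPKM.

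Tnnc1 had 677 FPKM (663 to 690) in si-NC against 1047 (1026 to 1068) in si-hnRNPL, a log2 change of 0.63 (0.59 to 0.67). Tnnc2 was at 265 (257 to 273) and 408 (395 to 421), a log2 change of 0.62 (0.56 to 0.69). The slow and fast forms of the calcium-binding subunit thus differed from the control by nearly the same fold, 1.55 and 1.54, and the difference between their log2 changes was 0.01 (-0.07 to 0.08). Their shares of troponin C remained at 71.9% and 28.1%, with a difference of 0.1 points for Tnnc1 (-0.968 to 1.17).

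Of the inhibitory subunit, Tnni1 had 190 FPKM (181 to 199) in si-NC against 269 (256 to 282) in si-hnRNPL. Tnni2 was at 300.3 (291 to 310) and 441 (427 to 455). Both were higher beyond their intervals, by log2 changes of 0.50 (0.40 to 0.60) and 0.55 (0.49 to 0.62). Tnni3 had 0.522 FPKM (0.219 to 0.824) in si-NC against 0.335 (0.0353 to 0.634) in si-hnRNPL, on about 11.9 and 5 implied fragments. The intervals of Tnni3 overlapped and its log2 change of -0.19 (-0.62 to 0.24) gave no direction at this depth.

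For the tropomyosin-binding subunit, Tnnt2 had 332 FPKM (318 to 345) in si-NC against 475 (454 to 495) in si-hnRNPL, and Tnnt3 was at 393 (382 to 403) and 529 (514 to 544). Tnnt1 was at 177 (170 to 184) and 230 (221 to 239) and had the smallest log2 change of the 7 abundant genes, 0.37 (0.29 to 0.45). Those of Tnnt2 and Tnnt3 were 0.52 and 0.43. The change of Tnnt2 exceeded that of Tnnt1 by 0.14 (0.03 to 0.26), while Tnnt2 and Tnnt3 could not be told apart (0.09, -0.01 to 0.19). The share of Tnnt2 in troponin T was higher by 1.72 points (0.136 to 3.30) and that of Tnnt1 lower by a little over 1 point (-1.03, -2.04 to -0.02), both small beside the difference in Tnnt2 between MB and MT.

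By subunit, the sums were higher in si-hnRNPL by 1.55-fold for troponin C (1.51 to 1.58), 1.447-fold for troponin I (1.394 to 1.503) and 1.37-fold for troponin T (1.33 to 1.41). The interval of troponin C lay above those of the other subunits, while those of troponin I and T overlapped. Gene by gene this order was not kept as deposited, since Tnnt2 was at a log2 change of 0.52 and Tnni1 at 0.50, with overlapping intervals. With the length and GC medians taken off, Tnnc2, which has the shortest exons, was at 0.38 and Tnni2 at 0.40. The troponin C to troponin T ratio was 1.05 in si-NC (1.02 to 1.07) and 1.18 in si-hnRNPL (1.15 to 1.21), and the ratio of troponin C to troponin I was 1.92 (1.86 to 1.98) and 2.05 (1.99 to 2.12).

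The size of these changes depended on the scaling. With TPM the median of the expressed entries moved from -0.01 to -0.12 and that of the 8 genes from 0.51 to 0.39. Then 0 of the 8 genes passed 0.58, against 1.2% of the expressed named entries. In this comparison the log2 change across 9954 genes went down with exon length (Spearman rho -0.40) and up with GC content (rho 0.42), given as a description since genes are not independent, and the troponin genes are short, with exon lengths of 800 to 2185 bases. Genes in the same bins of exon length as the troponin genes had median changes of 0.07 to 0.19. Taking off the medians of the length bin and then of the GC bin left the 7 abundant genes at 0.24 to 0.43, with a median of 0.33 over all 8 and 0 past 0.58. Of the expressed named entries, 0.57% then passed 0.58 upwards. The markers of differentiated myocytes moved with the troponin genes, from a sum of 2007 to 2817 FPKM, with Myog at 175 and 249 and Ckm at 45.0 and 74.3, while the proliferation markers, summing to 226 and 213, went in different directions. Mki67 was at 24.3 and 15.5 FPKM, Top2a at 64.3 and 42.2, Ccnb1 at 39.8 and 31.9 and Myf5 at 38.5 and 29.0, all lower in si-hnRNPL, whereas Id3 was at 34.1 and 64.5 and Id1 at 24.95 and 29.9. The part of these marker differences and of the length trend in the troponin changes was not tested.

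**Figure D4:**
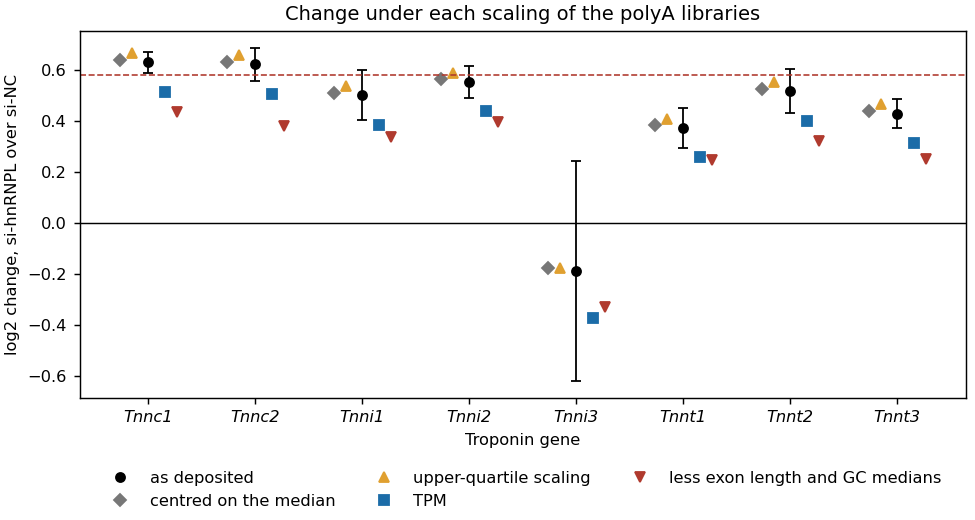
Log2 change of each troponin gene in si-hnRNPL over si-NC as deposited (black, with its interval) and after 4 other scalings, with a dashed line at 0.58. The 7 abundant genes stay above 0 under every scaling shown, and with TPM or with the exon length and GC medians taken off none of them reaches the dashed line.

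The polyA libraries differed from the MT total RNA library in time in DM, in RNA selection and in the transfection of an siRNA. They also differed in depth and in the set of entries quantified, 61630 for total RNA and 24992 for polyA RNA. These differences cannot be told apart. The times are those of the labels, and a figure legend of the study gives a shorter time in DM for an RNA-seq comparison of MT with MB. Set side by side, the slow to fast ratio of troponin I was 1.63 in MT at 72 h and 0.632 (0.597 to 0.669) in si-NC at 48 h. Tnni2 made up 37.9% of troponin I in MT and 61.2% in si-NC. The slow to fast ratio of troponin T was 0.761 (0.743 to 0.780) in MT and 0.452 (0.431 to 0.473) in si-NC, and that of troponin C was 2.14 (2.09 to 2.19) and 2.55 (2.46 to 2.65). In si-hnRNPL the ratios were 0.609 for troponin I, 0.435 for troponin T and 2.57 for troponin C, all within the intervals of si-NC.

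Other genes of the contractile apparatus were counted from fixed lists. Of 10 other thin filament genes, 6 were higher and 1 was lower by 0.58 or more in MT over MB, with a median of 3.60. Acta1, the skeletal alpha-actin, was among those higher (5.19), Tpm3, a tropomyosin, was lower (-1.01), and the tropomyosins Tpm1 and Tpm2, abundant in both libraries, were at 0.01 and 0.30. Troponin T binds tropomyosin, and in MB the Tpm1 mRNA was at 451 FPKM while all troponin T mRNAs together were at 49.4. These values are per gene and do not separate the transcript forms of a tropomyosin. Over si-NC, 1 of the 10 passed in si-hnRNPL, Acta1 at 0.61, and the median was 0.37, with Actc1, the cardiac actin, at 0.48, Tpm2 at 0.38 and Tpm1 at 0.36.

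Of 8 genes of the calcium cycle that loads the troponin switch, 6 were higher in MT with a median of 3.23. These included the calsequestrin Casq2 (6.53), the fast calcium pump Atp2a1 (5.73) and Casq1 (3.43), while the pump Atp2a2 was at -0.01. Sln was listed at 0 in all 4 libraries. In si-hnRNPL 0 of the 8 passed and the median was 0.08, with Casq2 at 0.37, Atp2a1 at 0.24 and Atp2a2 and Casq1 both at -0.02.

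Of 10 fast fibre genes, 9 were higher in MT with a median of 3.58. The fast myosin light chains Myl1 (7.29) and Mylpf (7.15) were in the range of the fast troponin genes Tnnc2, Tnni2 and Tnnt3 (6.61 to 7.52), and Atp2a1 (5.73) and the actinin Actn3 (3.74) were below it. In si-hnRNPL 2 of the 10 passed, Mylpf at 0.69 and Myl1 at 0.62, with Actn3 at 0.26 and Atp2a1 at 0.24, and the median was 0.15. Of 7 slow fibre genes, 4 were higher and 1 lower in MT with a median of 2.06, with Casq2 at 6.53, Myoz2, a Z-disc protein, at 4.37, Atp2a2 at -0.01 and Tpm3 at -1.01. In si-hnRNPL 1 of the 7 passed, Myoz2 at 0.59, and the median was -0.06, with Casq2 at 0.37, Atp2a2 at -0.02 and Tpm3 at -0.17. The slow troponin genes Tnnc1, Tnni1 and Tnnt1 were at 5.95 to 7.05 in MT over MB and at 0.37 to 0.63 in si-hnRNPL over si-NC. The 4 developmental genes were all higher in MT, with a median of 6.29, namely Myh3 at 6.79, Actc1 at 6.77, Myl4 at 5.81 and Myh8 at 2.64. In si-hnRNPL 0 of the 4 passed, with Myl4 at 0.51, Actc1 at 0.48, Myh3 at 0.36 and Myh8 at -0.00331.

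Distance to the median troponin gene was ranked in the plane of both log2 changes. Only the 10077 genes that reached 1 FPKM in every library were ranked. The nearest of them were Actc1, Myl4, Mylpf, Acta1 and Srl, at distances of 0.453 to 1.41. These are genes of actin, of myosin light chains and, for Srl, of a calcium-binding protein of the sarcoplasmic reticulum. Genes low in MB were left out, among them Tnnc2, Tnni2, Tnnt3 and Tnni3 themselves. Casq2 and Myh3, at 0.261 and 0.101 FPKM in MB, were left out too. Casq2 (6.53 and 0.37) lies nearer to the median (6.32 and 0.51) than Actc1 (6.77 and 0.48). Myh3 (6.79 and 0.36) lies nearer than Myl4 (5.81 and 0.51). Likeness here rests on 2 differences among 4 libraries.

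Genes beside the troponin loci differed in level and in the direction of their change. Lad1, which separates Tnni1 from Tnnt2, was at 0.115 FPKM in MB, 0.0773 in MT, 0.0102 in si-NC and, in si-hnRNPL, 0.0629, while its neighbours reached 285 and 224 FPKM in MT. Lsp1, between Tnni2 and Tnnt3, was at 32.6, 48.6, 91.5 and 91.8, a log2 change of 0.56 in MT over MB and 0.01 in si-hnRNPL over si-NC. Syt8, on the other side of Tnni2, was higher in MT, at 0.0198 in MB and 1.83 in MT, a log2 change of 1.47. Phlda3 beside Tnni1 and Pkp1 beside Tnnt2 were lower in MT, with log2 changes of -0.70 and -1.17. Dnaaf3, 513 bp from Tnni3, lay between 0.285 and 0.419 in all 4 libraries. Ube2c, a cell cycle gene next to Tnnc2, was lower in MT, at 129 and 15.9 FPKM.

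Some troponin loci share sequence with other genes. Prr33, whose strand is not among the values used here, overlaps Tnnt3. Its level was 1.61 FPKM in MB and 4.22 in MT, and 4.83 in si-NC against 3.97 in the knockdown library. It stood above Tnnt3 in MB and far below it elsewhere. In the GENCODE annotation the spans of Nisch and Ube2c reach over Tnnc1 (3400 bp) and Tnnc2 (1661 bp) on the opposite strand, with Nisch at 30.2 FPKM and Ube2c at 129 in MB, though their deposited loci do not overlap the troponin loci. The total RNA libraries were strand specific by their labels, but whether strand was used in the quantification is not given in the sources used here. The low MB values of Tnnt3, Tnnc1 and Tnnc2 may therefore carry an uncertainty that their intervals do not show. Of the transcript units assembled in the total RNA tables, 0 overlapped a troponin locus.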

How the data were processed

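Total RNA-seq (MB, MT) and polyA RNA-seq (si-NC, si-hnRNPL) were analysed, with 1 library per condition. The authors aligned reads to mm9 with TopHat2 and estimated FPKM values with Cufflinks, and the deposited tables give each FPKM a 95% interval. The depth was taken from the widths of these intervals, which in the polyA tables also carry error of assigning fragments to isoforms.

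Members were taken by exact name. Changes were log2((FPKM + 1) ratio), with intervals of both libraries combined in quadrature, and 0.58 as the fold. The background was all named entries, and those with a mean FPKM of at least 1. Exon lengths and GC contents came from GENCODE vM1 on the same build, split into 20 bins. Promoters came from RefSeq (GRCm38.p6). Named genes were the 8 members, Hnrnpl, the 5 nearest genes, adjacent genes, markers, and from each list at most the 4 with the largest mean FPKM. The members and lists were chosen with earlier results of these data known. Alternatives were other pseudocounts (0.1, 0.01 and 5), TPM, centring, upper-quartile scaling, length and GC medians, filters and other call rules. Formulas were tested on simulated data. Python 3.11.15, numpy 2.4.6, pandas 2.3.3 and matplotlib 3.10.9 were used.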

Additional observations from a re-analysis of the deposited data

How the results depend on the processing

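With 1 library per condition, leaving out a replicate could not be done, and the intervals hold no variation between cultures. No paired analysis was possible because each condition has 1 library. The median log2 change of the 8 genes in MT over MB, 6.32, was 6.97 with a pseudocount of 0.1, 7.07 with 0.01 and 5.13 with 5, 7.46 in TPM, 6.53 centred on the median, 6.55 with upper-quartile scaling, 6.70 without the length and GC medians and 5.99 over the members at 1 FPKM or more in both libraries. The number past the fold was 4 in that last setting, since 4 genes then remained. In si-hnRNPL over si-NC the median of 0.51 was 0.39 in TPM and 0.33 without the length and GC medians. The 2 genes past the fold became 0 in both of these settings, where 1.2% and 0.57% of the expressed named entries passed it upwards. They became 3 with upper-quartile scaling, where Tnni2 also passed at 0.59, against 1.59% of those entries. At an absolute log2 change of 1 the count was 0. By intervals that did not overlap it was 7, all higher in si-hnRNPL, against 14.2% of those entries wholly above. With a pseudocount of 5 in MT over MB, 7 genes passed, as Tnni3 did not, against 8.97% of the expressed named entries upwards. With a pseudocount of 0.01 Tnni3 passed downwards in si-hnRNPL, at -0.63 on about 11.9 and 5 implied fragments. No median changed its sign under these settings, though a pseudocount cannot turn the sign of a change. Shares of a subunit computed from implied fragments in place of FPKM lay outside their intervals for 19 of 32 values. In si-NC the share of Tnnt2 in troponin T was 22.0% by fragments and 36.8% by FPKM, and in the polyA tables implied fragments also carry assignment error.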
